A study of Mus musculus with 503 samples.

Results

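Pericyte-gated cells of the uninjured mouse spinal cord were examined in their own right, and the cells with and without a GLAST lineage mark were compared inside the gate. All cells came from adult *GLAST-CreERT2;R26R-tdTomato;Pdgfrb-eGFP* mice, labelled as female, so both sorts carried the same 3 transgenes. Tamoxifen-induced recombination leaves tdTomato in cells that had the GLAST gene (*Slc1a3*) active at that time and in their progeny, and EGFP reports *Pdgfrb*. Thoracic cord without injury was dissociated after removal of the meninges, and EGFP+ cells with tdTomato (tdTomato+) or without it (tdTomato-) were sorted singly into the wells of plates, and Smart-seq3 libraries, which cover the whole length of a transcript, were made from each. GLAST-CreERT2 also recombines in astrocytes, recombination need not reach every GLAST-expressing cell, and the mark does not say whether *Slc1a3* is active at the time of sorting. No rows of the table carry the transgenes, so the sort could not be checked at the level of the reporters.

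Pericytes are mural cells that share the basement membrane of capillaries with the endothelium. They are known for supporting the blood-brain and blood-spinal cord barriers and for adjusting capillary flow. Signalling from endothelial PDGF-B to the receptor PDGFRβ recruits and keeps them, and a KATP channel built from Kir6.1 (*Kcnj8*) and SUR2 (*Abcc9*) is typical of them in the central nervous system.

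The members were chosen on measured values of each cell, in CPM (counts per 1000000 counts). A gated cell had 20000 counts or more, *Kcnj8* at 100 CPM or more, *Col1a1* (a fibroblast collagen) under 200 CPM, *Myh11* (smooth muscle myosin) under 500 CPM, and *Pecam1* (an endothelial adhesion gene) below *Pdgfrb*. Of 276 uninjured cells, among 503 cells in the whole series, 90 tdTomato+ and 61 tdTomato- cells met the rule, 54.7% of the uninjured cells together. In the order given, the limits removed 31, 55, 6, 15 and 18 cells. At the limit on counts the nearest cell inside had 27097 counts and the nearest of 2 cells kept out by it alone had 9160. *Kcnj8* was at 101.05 CPM in the nearest cell inside and at 0 in the 1 cell kept out by it alone, and *Col1a1* was at 169 CPM inside and at 1056 CPM in the nearest of 5 cells. Cells lay close to both sides of the other limits. *Myh11* was at 472 CPM in the nearest cell inside and at 503 CPM in the nearest of 14 cells kept out by it alone. *Pecam1* reached 97.9% of *Pdgfrb* inside the gate and 101.8% in the nearest of 18 cells kept out by it alone.

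The gate held 57% of all sorted tdTomato+ cells (95% exact binomial interval 48.9% to 64.8%) and 51.7% of all sorted tdTomato- cells (42.3% to 61%). Among cells of 20000 counts or more the shares were 62.1% and 61%. On plate 209 the gate held 48 tdTomato+ and 25 tdTomato- cells, and on plate 213 it held 42 and 36. The share of gated cells thus differed between the sorts by less than its counting error.

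Gated cells held 27097 to 801455 counts, with medians of 272228 in tdTomato+ and 252987 in tdTomato- cells, and a median of 7194 detected genes. Plate 213 was the deeper plate, with medians of 333446 and 326424 counts against 226490 and 205306 on plate 209. Each deposited sample is 1 cell and no label names an animal, so each sort is 1 sample. No test was made, the values on the 2 plates stand beside each difference as a technical spread, and all intervals cover counting error only. On both plates the tdTomato- cells filled plate rows F to J and the tdTomato+ cells rows K to P, so sort and position on the plate cannot be told apart.

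The leading transcripts of the gated cells were those of capillary pericytes, together with those of endothelium. *Rgs5*, which restrains G protein signalling, was at 4171 CPM over all gated cells, *Vtn* (the matrix protein vitronectin) at 4101, *Kcnj8* at 2168, *Pdgfrb* at 1943, *Atp13a5* (a P-type ATPase) at 1227 and *Abcc9* at 1054 CPM. *Kcnj8* and *Pdgfrb* were used by the gate and are given as a description. Levels of different genes are set side by side per length, as CPM per kilobase of annotated exon, which holds for counts of reads. Whether reads or molecules were counted is not given in the sources used here. On that scale *Vtn* was at 2020, *Rgs5* at 918, *Kcnj8* at 851, *Higd1b* at 793, *Ndufa4l2* at 391.8, *Atp13a5* at 263 and *Abcc9* at 125.9.

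*Rgs5*, *Atp13a5* and *Vtn* were found in every gated cell also after each cell was thinned to 20000 counts, the depth at which 1 count equals 50 CPM. *Rgs5* ranged from 1701 to 7707 CPM per cell (median 4304) in tdTomato+ cells of plate 209 and from 343 to 11062 (median 3850) on plate 213. In tdTomato- cells it ranged from 3020 to 8886 (median 4294) and from 2254 to 8574 (median 4301). All gated cells therefore carried *Rgs5*, and the sorts overlapped over almost the whole range. *Atp13a5* had medians of 1064 and 1134 CPM in tdTomato+ and of 1215 and 1146 CPM in tdTomato- cells, with no cell below 273 CPM. *Abcc9* had medians of 892 and 879 CPM in tdTomato+ cells and of 1089 and 1105 CPM in tdTomato- cells, and single cells of either sort had no count of it.

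**Figure D1:**
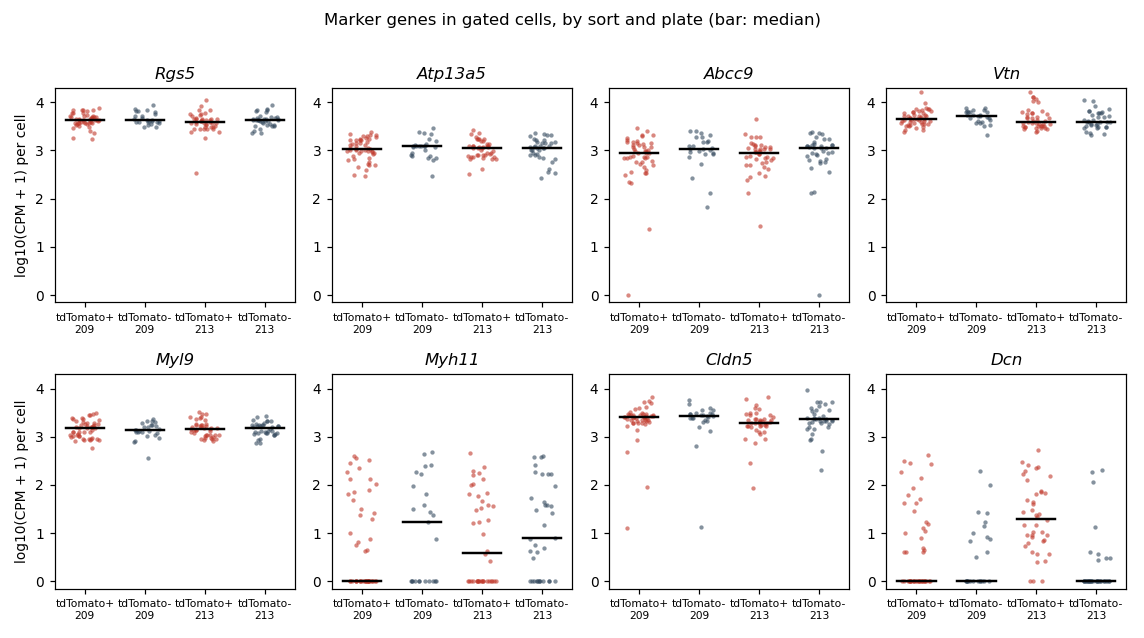
Level of 8 marker genes in each gated cell, as log10(CPM + 1), by sort and plate, with the median as a bar and tdTomato+ cells in red. *Rgs5*, *Atp13a5*, *Vtn* and *Myl9* were present in every cell, *Abcc9* in nearly all, *Cldn5* in every cell at widely varying level, and *Myh11* and *Dcn* were at 0 or low in most.

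The endothelial transcripts go against a pure pericyte label, and the cells are therefore called gated cells here. All 15 genes of the endothelial list were at 10 CPM or more in both sorts together. Their summed level per cell had a median of 16554 CPM (range 1737 to 33136) in tdTomato+ and 18252 CPM (2622 to 30948) in tdTomato- cells, against 19395 and 20339 CPM for the 26 genes of the pericyte list. *Cldn5*, the tight junction claudin of brain endothelium, was at 1531 CPM per kilobase, above *Kcnj8*, while in CPM without length both were at about the same level (2167 and 2168). It had a count in every gated cell, from 12.1 to 9219 CPM. Only 9 gated cells had *Pecam1* below 50 CPM. The source of the endothelial counts, and whether some wells held more than 1 cell, were not tested.

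Markers of other cell types varied by list. Of 18 smooth muscle contractile genes 9 stayed under 10 CPM, among them *Tagln*, *Cnn1*, *Lmod1* and *Pln*, which define arteriolar smooth muscle, while *Myl9*, which pericytes share, was at 1378 CPM. Of 24 perivascular fibroblast genes 10 stayed under 10 CPM, including *Lum* and *Pdgfra*, and 14 did not, among them *Cd34* (910 CPM), which endothelium also expresses, *Mgp* (395), *Col1a2* (87.1) and *Col3a1* (86.9). The summed fibroblast list had a median of 2011 CPM in tdTomato+ and 1922 CPM in tdTomato- cells and exceeded 500 CPM in 88 of 90 and 61 of 61 cells. Astrocyte genes other than *Gja1* and *Atp1b2* had a summed median of 18.5 and 8.48 CPM, with a highest cell at 2770 and 4727 CPM, and exceeded 500 CPM in 5 tdTomato+ and 3 tdTomato- cells. Microglial genes exceeded 500 CPM in 3 and 0 cells. *Ptprc*, *Cx3cr1*, *Mog*, *Olig2*, *Snap25*, *Mki67* and *Top2a* were all under 10 CPM. These genes mark immune, oligodendroglial, neuronal and cycling cells.

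Against the 94 uninjured cells of the same depth outside the gate, gated cells stood out by *Nodal* (288 against 55.5 CPM), a TGF-beta family ligand, by *Ggt1* (397 against 81.8), which breaks down glutathione, and by *Slc38a5* (474 against 122.03), a glutamine transporter. These and the gate gene *Kcnj8* (2168 against 446) were picked from the 15 genes with the largest difference, among which *Cldn15* ranked first. They are a description only, since the gate defined both sides. *Rgs5* did not set the gated cells apart from the 35 cells with *Myh11* at 500 CPM or more and *Col1a1* under 200 CPM, where it was at 4099 CPM, but *Abcc9* (318 CPM there), *Atp13a5* (544) and *Nodal* (100.7) were lower in those cells. In the 35 cells with *Col1a1* at 200 CPM or more and *Myh11* under 500 CPM, *Rgs5* was at 224, *Atp13a5* at 19.3 and *Nodal* at 0.181 CPM. The 18 cells that failed on *Pecam1* alone kept *Rgs5* at 3377, *Abcc9* at 549 and *Atp13a5* at 502 CPM.

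Promoter sequences of 2 genes that mark the gated cells and of 2 genes that the comparison of the sorts turns on are printed here so that the loci can be identified. Each runs 5′ to 3′ on the strand of the gene, from 250 bases before to 50 bases after the RefSeq start on GRCm38.p6. Capitals mark every match, on either strand, to TGGGAA (the core bound by the Notch effector RBPJ, found in 25.6% of 32851 mouse promoters of this length), ACGTG (the hypoxia response core, 19.6%) or TATAAA (the TATA box, 13.6%). *Kcnj8* (chr6:142571565-142571864, minus strand) and *Depp1* (chr6:116650434-116650733, plus strand) each held 1 match to the RBPJ core, *Slc1a3* (chr15:8710758-8711057, minus strand) held 1 TATA box and 1 hypoxia core, and *Rgs5* (chr1:169655251-169655550, plus strand) held none of the 3. A match is a string of letters only, and at these shares in all promoters it sets none of the genes apart.
Kcnj8: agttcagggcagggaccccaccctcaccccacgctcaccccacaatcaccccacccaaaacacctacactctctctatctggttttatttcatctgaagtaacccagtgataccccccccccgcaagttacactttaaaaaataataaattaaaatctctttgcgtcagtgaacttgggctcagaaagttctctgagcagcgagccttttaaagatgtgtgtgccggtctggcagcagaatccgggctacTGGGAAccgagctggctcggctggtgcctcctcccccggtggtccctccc
Rgs5: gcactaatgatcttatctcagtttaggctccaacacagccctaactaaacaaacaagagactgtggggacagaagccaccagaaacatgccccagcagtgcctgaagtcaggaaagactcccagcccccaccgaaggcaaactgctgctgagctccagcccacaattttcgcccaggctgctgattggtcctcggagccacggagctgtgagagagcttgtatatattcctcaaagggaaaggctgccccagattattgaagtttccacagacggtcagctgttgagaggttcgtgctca
Slc1a3: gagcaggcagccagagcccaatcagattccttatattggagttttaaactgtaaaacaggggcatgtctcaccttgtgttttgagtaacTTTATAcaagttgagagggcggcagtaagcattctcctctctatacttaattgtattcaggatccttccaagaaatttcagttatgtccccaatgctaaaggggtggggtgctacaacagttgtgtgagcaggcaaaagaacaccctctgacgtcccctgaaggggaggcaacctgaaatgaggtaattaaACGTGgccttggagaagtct
Depp1: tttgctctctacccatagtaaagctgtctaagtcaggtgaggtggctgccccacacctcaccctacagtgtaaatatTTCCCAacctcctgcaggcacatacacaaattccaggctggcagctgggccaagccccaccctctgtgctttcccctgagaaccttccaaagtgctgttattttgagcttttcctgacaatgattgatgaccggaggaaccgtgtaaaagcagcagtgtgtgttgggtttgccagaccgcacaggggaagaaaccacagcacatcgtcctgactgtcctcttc

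The GLAST gene itself was examined first in the comparison of the sorts. *Slc1a3*, the glial glutamate and aspartate transporter, was low in gated cells of either sort: 45.3 CPM (95% Poisson interval 42.8 to 47.96) in tdTomato+ and 17.9 CPM (15.97 to 19.9) in tdTomato- cells. On plate 209 the sorts were at 21.01 CPM (18.5 to 23.8) against 17.3 CPM (14.1 to 21.1), and on plate 213 at 65.3 CPM (61.2 to 69.7) against 18.1 CPM (15.8 to 20.6). The log2(CPM + 1) difference of 1.30 was thus 0.27 on one plate, where the intervals overlapped, and 1.80 on the other. Per kilobase of exon *Slc1a3* was at 3.99 CPM over the gated cells, far below *Kcnj8*.

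Most gated cells of either sort had little or no *Slc1a3*. Its median was 0 CPM in 3 of the 4 sets of cells and 9.41 CPM in tdTomato+ cells of plate 213, and the highest cells reached 275 and 363 CPM in tdTomato+ and 250 and 203 CPM in tdTomato- cells. At 50 CPM or more were 19 of 90 tdTomato+ cells (21.1%, 13.2% to 30.99%) and 6 of 61 tdTomato- cells (9.84%, 3.70% to 20.2%). By plate these were 6 of 48 and 13 of 42 tdTomato+ cells against 3 of 25 and 3 of 36. At 20000 counts a cell *Slc1a3* was found in 30% (20.8% to 40.6%) and 18.03% (9.36% to 29.98%) of cells, against 53.3% and 45.9% without thinning. The sorts thus overlapped in every measure per cell, and the intervals of these shares overlapped too.

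The cells highest in *Slc1a3* also carried pericyte genes, as did every gated cell. The cell with most of it, at 363 CPM from 212 counts, had *Rgs5* at 2777 CPM, *Kcnj8*, which the gate requires, at 1778 CPM, and a summed astrocyte list of 5.14 CPM apart from *Gja1* and *Atp1b2*. The next, at 341 CPM from 208 counts, had *Rgs5* at 3203 CPM and an astrocyte sum of 11.5 CPM. The 2 cells that followed did carry astrocyte counts, with sums of 168 and 655 CPM, and had *Rgs5* at 6793 and 343 CPM. Leaving out the 10 cells with over 500 CPM of astrocyte or microglial genes, a setting added after the data were seen, gave a difference of 1.35 beside 1.30. Cells with lower astrocyte sums stayed in, and the part of astrocyte RNA in the *Slc1a3* difference was not tested. Outside the gate *Slc1a3* was at 418 CPM in tdTomato+ and 45.4 CPM in tdTomato- cells, at 610 CPM in the cells with *Col1a1* at 200 CPM or more, and at 34.8 CPM in the cells with *Myh11* at 500 CPM or more.

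**Figure D2:**
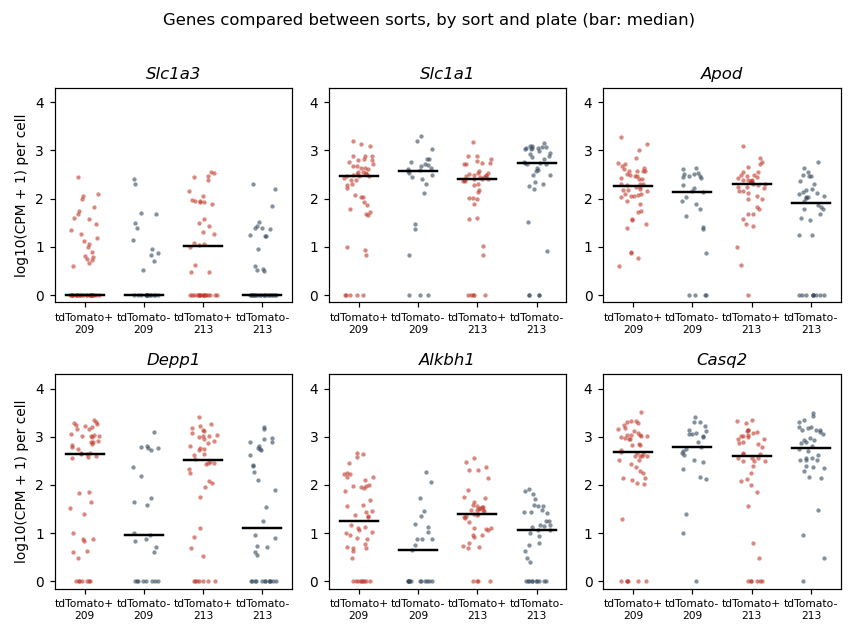
Level of *Slc1a3*, *Slc1a1*, *Apod*, *Depp1*, *Alkbh1* and *Casq2* in each gated cell, as log10(CPM + 1), by sort and plate, with the median as a bar and tdTomato+ cells in red. For each gene both sorts held cells at or near 0 and cells at high level, and the sorts differed in how the cells were spread between these.

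Across all genes the sorts were close. Of 2535 genes at 100 CPM or more, 2324 (91.7%) differed by under 0.5 on the log2 scale (1.41-fold), and only 2 differed by 2-fold or more in the summed counts. A gene was counted as past 2-fold when it differed by at least that much in the same direction on both plates. Among 10194 genes at 10 CPM or more, 164 (1.61%) were past 2-fold with tdTomato+ higher and 94 (0.922%) with tdTomato- higher, 258 (2.53%) together. The same rule applied between the plates, with both sorts required to show it, gave 227 genes (2.23%), so the sorts differed in about as many genes as the plates did.

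Differences between the sorts hardly recurred from plate to plate. Across the 10194 genes the difference on plate 209 and that on plate 213 had a Pearson r of 0.04 and the same sign in 51.8% of genes. The 2 plates share no library, and genes are not independent replicates. Among the 2535 genes at 100 CPM or more r was 0.11. With 1 sample a sort, nothing finer than the values on each plate can be read from this.

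**Figure D3:**
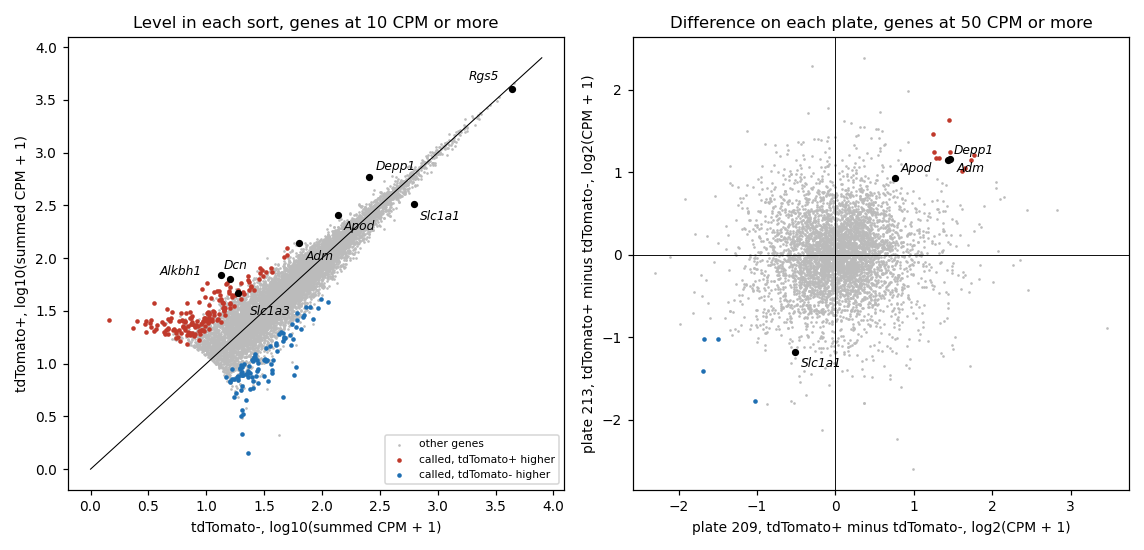
Left, summed level of 10194 genes in tdTomato+ and tdTomato- gated cells, as log10(CPM + 1), with the 164 and 94 genes past 2-fold on both plates in colour and the line of equality. Right, log2 differences on plate 209 and plate 213 for genes at 50 CPM or more over all gated cells, whose cloud had no clear slope. Across the 4957 genes at 50 CPM or more in the mean of the sorts, r was 0.06.

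The 2 genes at 100 CPM or more that were past 2-fold in the summed counts were *Depp1* and *Adm*, and both were past it on each plate. *Depp1*, a target of FOXO factors that is linked to autophagy, was at 593 CPM (584 to 603) in tdTomato+ and 255 CPM (248 to 262) in tdTomato- cells, a difference of 1.22 (1.43 on plate 209, 1.15 on plate 213). Its level was uneven among cells: medians were 446 and 322 CPM in tdTomato+ cells and 7.98 and 12.6 CPM in tdTomato- cells, while maxima lay between 1257 and 2541 CPM in all 4 sets. At 100 CPM or more were 29 of 48 and 29 of 42 tdTomato+ cells, against 8 of 25 and 15 of 36 tdTomato- cells. With cells thinned, *Depp1* had a count in 70% (59.4% to 79.2%) and 40.98% (28.6% to 54.3%) of them.

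The same gene varied within the sorts too. By plate row, *Depp1* ranged from 341 to 722 CPM in tdTomato+ rows and from 35.4 to 373 CPM in tdTomato- rows of plate 209, and from 386 to 832 against 16.8 to 582 CPM on plate 213, so that rows of the sorts overlapped on both plates. Outside the gate it was at 321 and 179 CPM. *Adm*, which encodes the vasodilator peptide adrenomedullin and was singled out after its values were seen, was at 138.9 CPM (134.5 to 143.5) and 62.5 CPM (58.9 to 66.2), a difference of 1.14 (1.47 and 1.16). At 100 CPM or more were 14 of 48 and 19 of 42 tdTomato+ cells against 3 of 25 and 12 of 36 tdTomato- cells.

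The ranking by size, limited to genes at 50 CPM or more in the higher sort and in at least 20% of its thinned cells, put lower genes first. *Alkbh1*, a nucleic acid demethylase, was at 68.3 CPM (65.1 to 71.5) in tdTomato+ and 12.4 CPM (10.8 to 14.1) in tdTomato- cells, 2.37 apart (2.08 and 2.50). Its median per cell was only 17.03 and 23.8 CPM against 3.40 and 10.6, and 16 of 90 against 2 of 61 cells reached 100 CPM. Outside the gate the order was not the same, with 55.9 and 63.2 CPM. *Csf1r*, the receptor that defines microglia, ranked first (57.4 against 9.06 CPM), but it had a count in 38.9% of tdTomato+ and 63.9% of tdTomato- cells, 1 tdTomato+ cell held 48.5% of its counts, and without the cells of over 500 CPM of astrocyte or microglial genes its difference was 0.55 instead of 2.54.

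Of the 10 genes ranked with tdTomato+ higher 6 were past 2-fold on both plates. Beside *Csf1r* and *Alkbh1* these were *Ankrd37* (55.5 against 13.8 CPM), *Cryab* (57.4 against 14.2), a small heat shock protein, *Rcbtb2* (67.5 against 21.8) and *Bag2* (56.9 against 19.1), a co-chaperone. *Dcn*, *Sh3pxd2b*, *Rad54b* and *Sppl2b* were under 2-fold on plate 209. *Dcn*, the matrix proteoglycan decorin and a fibroblast marker, was at 43.5 against 25.2 CPM on that plate and 77.3 against 10.2 CPM on the other. In the cells with *Col1a1* at 200 CPM or more it was at 4816 CPM, so its level in the gate was low in both sorts.

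Of the 10 genes ranked with tdTomato- higher, by the same choice, 8 were past 2-fold on both plates, beside 0.922% of all genes. *Hmcn2*, a matrix protein of the hemicentin family, was at 8.39 CPM in tdTomato+ and 58.7 CPM in tdTomato- cells (differences of -1.21 and -3.99). *Plcd3* (16.1 against 55.4), a phospholipase C, *Slc25a10* (20.5 against 64.8), the mitochondrial dicarboxylate carrier, and *Tmod2* (37.1 against 111.4 CPM), which caps actin filaments, followed. *Cend1*, *Wfs1*, *Lmf1* and *Fam160b1* completed the 8, and *Nup54* (-0.13) and *Ccdc166* (-0.88) were under 2-fold on plate 209. All 10 had a count in 24.6% to 45.9% of thinned tdTomato- cells, where a count stands for 50 CPM. By plate row the sorts overlapped on plate 209 for each of the 20 ranked genes. On plate 213 they did not overlap for *Alkbh1* (highest tdTomato- row at 13.1, lowest tdTomato+ row at 17.7 CPM), *Dcn* (22.8 and 41.1), *Hmcn2* (lowest tdTomato- row at 12.9, highest tdTomato+ row at 9.27 CPM) and *Nup54* (37.7 and 23.6). The ranking used these same counts, which favours rows that lie apart. The share of all genes without overlap was not taken, so the row values are a description only.

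The genes that the study set on either side of *Slc1a3* expression were followed in the gate. The study read them from mural cells of a brain dataset, and they were picked for this comparison with earlier results of these data known. *Apod*, the lipid carrier apolipoprotein D, was at 256 CPM (250 to 262) in tdTomato+ and 135.5 CPM (130.3 to 140.99) in tdTomato- cells, 0.91 apart (0.76 and 0.93). Its median per cell was 183 and 199 CPM against 133.6 and 80.3 CPM, it reached 100 CPM in 66 of 90 against 31 of 61 cells, and 82.2% (72.7% to 89.5%) against 62.3% (48.96% to 74.4%) of thinned cells held a count. *Apod* stayed under 2-fold on both plates but differed in the same direction on each, and its levels by plate row overlapped between the sorts on both plates. Outside the gate it was at 2726 and 337 CPM, and at 4152 CPM in the cells with *Col1a1* at 200 CPM or more, so that it was far higher in fibroblast-gene cells than in gated cells of either sort.

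*Casq2*, which stores calcium in muscle sarcoplasmic reticulum, was at 659 CPM (649 to 669) in tdTomato+ and 875 CPM (862 to 889) in tdTomato- cells, with differences of -0.23 and -0.61 on the plates. It reached 100 CPM in 72 of 90 and 54 of 61 cells. *Spp1* (osteopontin) was at 54.9 and 40.5 CPM, *Itih5* at 1246 and 1328 CPM and *Pdgfa* at 25.5 and 24.8 CPM. In spinal cord sections the study found *Spp1* in tdTomato+ cells where arterioles pass into capillaries, but not in tdTomato+ capillary pericytes. None of these 5 genes was past 2-fold.

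Genes of pericyte identity were close in level in the sorts. Of 26 genes all were at 10 CPM or more and none was past 2-fold on both plates, where 2.53% of all genes were. A count of 0 in a list of this size or smaller is therefore near the background. Among genes at 100 CPM or more, 2 of 2535 were past 2-fold with tdTomato+ higher and 0 with tdTomato- higher. For lists of high genes the background is thus lower than 2.53%. The median difference of the pericyte list was -0.02 (-0.06 and -0.02 on the plates) beside 0.02 over all 10194 genes. *Mcam*, an adhesion molecule, had a difference of -0.54 (297 against 433 CPM). *Cspg4*, the proteoglycan NG2, was at 561 and 721 CPM, *Cd248* at 58.2 and 80.3 CPM, *Abcc9* at 954 and 1197 CPM and *Atp13a5* at 1174 and 1302 CPM, each lower in tdTomato+ cells on both plates. *Higd1b* (703 against 627 CPM) and *Foxf2* (113.9 against 92.9), a pericyte transcription factor, were higher in tdTomato+ cells on both. In all, 7 genes were higher in tdTomato+ and 9 in tdTomato- cells on both plates, and 10 had opposite signs on the plates. Over all 10194 genes 28.7% were higher in tdTomato+ and 23.1% in tdTomato- cells on both plates, which is the share to set beside the counts of the lists that follow.

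**Figure D4:**
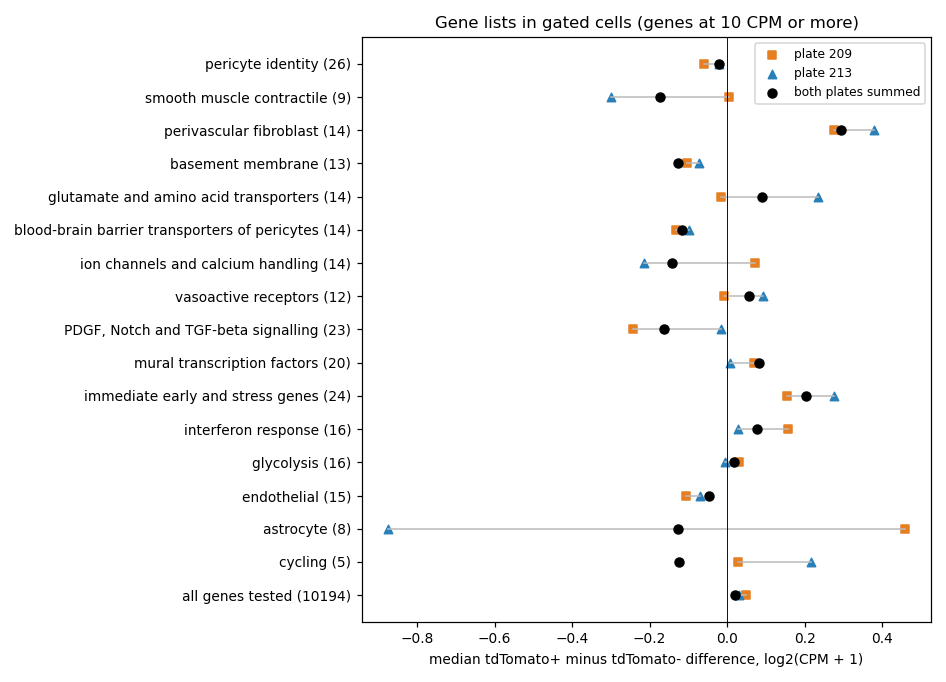
Median log2 difference, tdTomato+ minus tdTomato-, over the genes of each list at 10 CPM or more, with the number of genes in brackets. Black points are summed counts, squares plate 209 and triangles plate 213, for lists with 5 or more such genes. Most lists lay near the median of all genes (0.02). The astrocyte list (8 genes) lay far apart on the plates (0.46 and -0.87).

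Glutamate and amino acid transporters were next, since GLAST is one of them. Of 16 genes 14 were at 10 CPM or more and none was past 2-fold on both plates (median 0.09, -0.02 and 0.23 on the plates). *Slc1a1*, the glutamate transporter EAAC1, was more abundant than GLAST in the gate, at 54.1 CPM per kilobase against 3.99, and was lower in tdTomato+ cells: 323 CPM (316 to 330) against 625 CPM (613 to 636). It differed by -0.51 on plate 209 and -1.18 on plate 213, with medians per cell of 293 and 251 CPM against 370 and 551 CPM. Cells of the sorts overlapped throughout, the shares with a count after thinning were 81.1% and 81.97%, and plate rows overlapped on both plates. *Slc1a5*, a neutral amino acid transporter, ran the other way (79.8 against 38.7 CPM, 0.28 and 1.45). *Slc6a6*, the taurine transporter, was at 1501 and 1242 CPM, and *Slc6a20a*, a proline transporter, at 726 and 690 CPM. In the gated cells lowest in the endothelial gene *Cldn5* (12.1, 12.7, 86.8 and 91.4 CPM) *Slc1a1* was at 9.06, 0, 0 and 71.8 CPM. The part of endothelial RNA in the *Slc1a1* counts, and in their difference between the sorts, was not tested.

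Several barrier transporters had close levels in the sorts. *Slc2a1* (the glucose transporter GLUT1) was at 1709 and 1687 CPM, *Slc19a1*, the reduced folate carrier, at 918 and 814 CPM, and *Slc22a8*, an organic anion transporter, at 738 and 784 CPM. The list of 14 measured genes had a median of -0.12 with none past 2-fold, beside 2.53% of all genes. *Slc35f2* (184 against 278 CPM) was lower in tdTomato+ cells on both plates (-0.65 and -0.55).

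The basement membrane list, 13 of 13 genes measured, had a median of -0.13 (-0.10 and -0.07) with none past 2-fold. *Sparc* was at 2256 and 2238 CPM and *Col4a1*, a collagen IV chain, at 584 and 618 CPM. *Nid1* (280 against 357 CPM) and *Lamc1* (374 against 441), a laminin chain, were lower in tdTomato+ cells on both plates, and *Col4a2* (218 against 177) and *Lama5* (109.1 against 80.6) were higher. In total 3 genes were higher in tdTomato+ cells on both plates and 7 in tdTomato- cells.

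The 9 measured contractile genes had a median of -0.17 (0.00 and -0.30) and none was past 2-fold. On both plates 3 were lower in tdTomato+ cells and 1 was higher. *Mylk*, the myosin light chain kinase, was at 404 and 521 CPM (-0.36 and -0.38), *Smtn* (smoothelin) at 152.4 and 226 CPM (-0.67 and -0.50) and *Pdlim7* at 83.9 and 133.04 CPM, each lower in tdTomato+ cells on both plates. *Myl9* was at 1371 and 1388 CPM. *Acta2*, the smooth muscle actin, was at 49.8 and 34.6 CPM, but 1 tdTomato- cell held 83.6% of the counts of that sort. *Myh11*, limited by the gate, was at 47.2 and 74.6 CPM.

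Ion channels and calcium handling had a median of -0.14 over 14 measured genes (0.07 and -0.22), with none past 2-fold. *Ano1*, a calcium-activated chloride channel, was at 364 and 405 CPM and *Itpr2*, an IP3 receptor, at 266 and 244 CPM. *Trpc6*, a cation channel, was at 21.5 and 7.42 CPM (1.35 and 0.83). Of the 14 genes 9 had opposite signs on the plates, beside 4916 of all 10194 genes.

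Among vasoactive receptors 12 of 20 genes were measured, with a median of 0.06, and 1 was past 2-fold on both plates, beside 2.53% of all genes. This was *Olfr558*, an odorant receptor, at 123.1 CPM (118.9 to 127.4) in tdTomato+ and 48.9 CPM (45.7 to 52.2) in tdTomato- cells. It was absent from most cells, with a count in 31.1% and 14.8% of thinned cells, and was highest outside the gate, at 768 CPM in the cells with *Myh11* at 500 CPM or more. *Adora2a*, an adenosine receptor, was at 227 and 154.1 CPM (0.51 and 0.64). *Tbxa2r*, the thromboxane receptor, was at 241 and 344 CPM (-0.50 and -0.47), and *Gucy1b1*, a subunit of the nitric oxide receptor guanylate cyclase, at 792 and 942 CPM (-0.28 and -0.27).

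Signalling genes of the PDGF, Notch and TGF-beta pathways had a median of -0.16 over 23 measured genes (-0.24 and -0.02) and none was past 2-fold. Of these, 12 were lower in tdTomato+ cells on both plates and 1 was higher, beside 23.1% and 28.7% of all genes. The ligand *Pdgfb* was at 118.4 and 108.7 CPM and its receptor gene *Pdgfrb*, used by the gate, at 1827 and 2110 CPM. *Notch3*, the mural Notch receptor, was at 300 and 349 CPM, and its targets *Heyl* at 280 and 348 CPM and *Hey2* at 75.4 and 112.9 CPM (-0.62 and -0.62). *Eng*, a TGF-beta co-receptor that endothelium also expresses, was at 1169 and 1406 CPM, and *Id3*, the 1 gene higher in tdTomato+ cells on both plates, at 508 and 414 CPM.

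Transcription factors of mural cells had a median of 0.08 over 20 measured genes. *Epas1* (HIF-2 alpha) was at 1846 and 1700 CPM, *Ebf1* at 541 and 548 CPM and *Foxs1* at 168 and 221 CPM. *Zic4* (56.6 against 96.3 CPM) was lower in tdTomato+ cells (-0.60 and -0.89), and so were *Foxc1* (31.8 against 41.7) and *Tbx2* (34.5 against 41.9). None was past 2-fold on both plates. Of the 20 genes 7 were higher in tdTomato+ cells on both plates and 6 lower, beside 28.7% and 23.1% of all genes.

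Immediate early and stress genes, which dissociation is known to induce, were in the majority higher in tdTomato+ cells. Of 24 measured genes 16 were higher there on both plates and 2 lower, beside 28.7% and 23.1% of all genes, with a median of 0.20 (0.15 and 0.28). *Fos* was at 2084 and 1729 CPM (0.48 and 0.20), *Klf4* at 265 and 174 CPM, *Fosl2* at 40.5 and 19.8 CPM, *Hspa1a* at 413 and 324 CPM and *Egr1* at 535 and 516 CPM. *Egr2* was the 1 gene past 2-fold, at 22.4 and 2.78 CPM, with 1 cell holding 74.5% of the tdTomato- counts.

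Interferon response genes had a median of 0.08 over 16 genes, with *Ifitm3* at 662 and 588 CPM and *Irf1* at 124.9 and 212 CPM. Glycolysis genes had a median of 0.02 over 16 genes, with *Ldha* at 1163 and 1150 CPM. Neither list held a gene past 2-fold, beside 2.53% of all genes.

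Markers of other cell types were compared between the sorts as well, because their counts lay beside all of these results. The endothelial list had a median of -0.05 (-0.11 and -0.07) with none past 2-fold. Its 15 genes kept their sign on both plates, 12 lower in tdTomato+ cells and 3 higher, beside 23.1% and 28.7% of all genes, by small amounts: *Cldn5* was at 2139 and 2208 CPM, *Flt1* at 1303 and 1372 CPM, *Kdr* at 483 and 642 CPM and *Ly6a* at 1204 and 1069 CPM. *Pecam1*, limited by the gate, was at 732 and 638 CPM. The part of endothelial counts in the differences between the sorts was not tested.

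Fibroblast genes had a median of 0.29 over 14 measured genes (0.28 and 0.38), with 6 higher in tdTomato+ cells on both plates and 2 lower. *Col1a2* was at 101.7 and 66.2 CPM, *Trf* at 59.7 and 27.6 CPM and *Col3a1* at 89.1 and 83.6 CPM. *Gjb6*, which astrocytes share, was past 2-fold with tdTomato- higher (0.418 against 21.9 CPM), with 1 cell holding 78.1% of the counts. Astrocyte genes had a median of -0.13 over 8 measured genes, with opposite values on the plates (0.46 and -0.87). Of these 8 genes 1 was past 2-fold with tdTomato+ higher and 2 with tdTomato- higher, beside 1.61% and 0.922% of all genes. The first was *Ntsr2* (21.88 against 6.005 CPM) and the others were *Aqp4* (2.203 against 18.997 CPM) and *Gjb6*, all at low level. Astrocyte genes other than *Gja1* and *Atp1b2* exceeded 500 CPM in only 5 tdTomato+ and 3 tdTomato- cells. Whether these few cells account for the calls was not tested. *Gfap* was at 8.39 and 4.80 CPM. Of the microglial list 3 of 12 genes were measured and *C1qb* and *Csf1r* were past 2-fold with tdTomato+ higher, beside 1.61% of all genes. The oligodendrocyte, neuron, Schwann cell and cycling lists had 3, 3, 2 and 5 measured genes, none past 2-fold.

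Some genes varied widely among gated cells of the same sort. The widest spread among genes at 100 CPM or more, and in the top 50 of both sorts, was in *Slc38a5*, with an SD over cells of 4.13 on the log2(CPM + 1) scale, followed by *Ccn1* (4.10), a YAP target, and *Depp1* (4.09). *Rgs5* had an SD of 0.55, *Vtn* 0.58 and *Atp13a5* 0.72. *Slc38a5* had medians of 326 and 434 CPM and maxima of 2042 and 2645 CPM, with a count in 64.4% and 70.5% of thinned cells, so that some cells of both sorts held much and others none. *Kcne4*, a potassium channel subunit (3.91), *Slc6a13*, a GABA and taurine transporter (3.82), *Ifit1* (3.79) and *Irgm1* (3.77), interferon-induced genes, had the same form in both sorts.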

How the data were processed

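The values are raw counts, whole numbers for each gene in each cell, in 1 table that the authors deposited. The columns of 276 uninjured cells were used here, and 1692 of its 1968 columns were not. The submitters' processing notes name mouse build mm10. The aligner, the counter and the annotation are not given in the sources used here, nor is whether reads or molecules were counted. The 92 spike-in rows held 0% of the counts of these cells and were left out, which left 56701 gene rows. Groups came from the labels (sorted population, treatment, plate).

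The gate and the gene lists were chosen with earlier results of these data known. Counts were summed over the gated cells of a sort, whole and per plate, scaled to CPM, and compared as log2(CPM + 1), which understates differences of low genes. Genes at 10 CPM or more (mean of the sorts) entered counts of genes past 2-fold on both plates, without a test. Shares of cells were also taken after thinning to 20000 counts. Intervals are exact Poisson or exact binomial at 95% and cover counting error only. The genes named are *Slc1a3*, the gate genes, the list genes, the 10 largest differences in each direction (50 CPM or more in the higher sort, 20% or more of its thinned cells, 1 direction on both plates, no cell with 50% or more of the counts), the 25 highest genes, the 15 with the largest difference from cells outside the gate, and the most variable genes. Not all are reported. Levels per length used the exon union of GENCODE, with 383 of 384 genes matched, and promoters came from RefSeq GRCm38.p6.

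The study sorted single cells into wells after singlet gates on forward and side scatter. No doublets were called here, and wells with RNA of more than 1 cell were not looked for. As a check on duplicated libraries, 0 pairs of gated cells had identical counts. Alternatives changed the gate, the plate, the scaling (TMM factors of edgeR 4.0.16 and size factors of DESeq2 1.42.0, used for scaling only), the pseudocount and the filter. Python 3.11.15 with numpy 2.4.6, pandas 2.3.3, scipy 1.17.1 and matplotlib 3.10.9, and R 4.3.3, were used.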

Additional observations from a re-analysis of the deposited data

How the results depend on the processing

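No paired analysis was possible because the result comes from no test and no replicate number in the labels pairs cells. A gate with *Pecam1* below 50 CPM in place of *Pecam1* below *Pdgfrb* left 9 cells (1 and 3 tdTomato+, 1 and 4 tdTomato-). With these few cells the difference was 2.75 for *Slc1a3*, 0.22 for the pericyte identity list, 3.13 for the fibroblast list, -3.45 for the astrocyte list and -0.78 for the endothelial list. The gene counts were 1031 with tdTomato+ higher, 887 with tdTomato- higher and 2659 between the plates, and the direction turned for *Slc25a10* (1.00), *Wfs1* (2.79), *Olfr558* (-5.76), *Depp1* (-4.75), *Slc1a1* (3.44), *Nup54* (1.56) and *Apod* (-0.57). The pericyte identity median was -0.0595 on plate 209 alone, -0.0638 with TMM factors, -0.0696 with DESeq2 size factors, 0.0601 with the mean of each cell's CPM and 0.0149 without the 10 cells of over 500 CPM of astrocyte or microglial genes, a setting added after the data were seen. Its sign is therefore not settled. The fibroblast median was 0.42 on plate 209 alone and 0.38 on plate 213 alone. The endothelial median was -0.11 on plate 209 alone, -0.0890 with TMM factors, -0.0948 with DESeq2 size factors and -0.14 with the mean of each cell's CPM. The number of genes past 2-fold depended most on the settings. With tdTomato+ higher it was 898 on plate 209 alone, 827 on plate 213 alone, 47 with a pseudocount of 10 CPM, 608 with no filter and 10 at 50 CPM or more. With tdTomato- higher it was 778, 728, 14, 300 and 6 under the same settings and 58 with the mean of each cell's CPM. Between the plates it was 51 with a pseudocount of 10 CPM, 726 with no filter and 12 at 50 CPM or more. The counts of 1 plate alone are larger because only 1 plate had to pass. With the mean of each cell's CPM 76 of the 164 and 35 of the 94 genes were called again. The other 65 values for the gate, *Slc1a3*, the lists and the gene counts moved by no more than the SD of the values on the 2 plates, or for counts by no more than 1.5 times. Where the plates differ this limit is wide: on plate 209 alone, with the filter applied there, *Slc1a3* was at 0.27 and the signs of the smooth muscle list (0.02) and the astrocyte list (0.66) turned. Of 300 values for 30 named genes, 11 had the other sign, 7 of them in the gate of 9 cells. Depth limits genes near 10 CPM most, where 1 cell can hold much of a sort's counts.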
